A study of Mus musculus with 6 samples.

Results

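Inhibitory coreceptors, Fc receptors and Fc receptor-like genes of B cells were compared between B cells deficient in PP2Aa and WT B cells. PP2Aa, the product of Ppp2r1a, is the scaffold on which the phosphatase PP2A assembles. The 10 genes were Cd22, Siglecg, Cd72, Lair1, Pirb, Fcgr2b, Fcer2a, Fcrla, Fcrl1 and Ptpn6, taken by symbol from a table of 22788 genes, and all 10 were present. The RNA-seq libraries, prepared with Smart-seq2 for small inputs, comprised 3 from PP2Aa-deficient mice with a Cre allele and Ppp2r1a flox/flox and 3 from WT mice, at 8 weeks of age on the C57BL/6 background. The Cre allele and the loss of PP2Aa entered together, because the WT label names no Cre, so their effects cannot be told apart. The tissue label reads spleen whereas the protocols describe washing out the peritoneal cavity, a conflict that is not resolved here. A plate sheet deposited with the values lists 12 wells and calls the WT wells miRNA CTRL and the PP2Aa-deficient wells miRNA target. The genotype in the sample labels set the groups here, and this difference is not settled.

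A B cell that binds antigen through its receptor is restrained by coreceptors that carry immunoreceptor tyrosine-based inhibitory motifs (ITIMs) in their cytoplasmic part. The tyrosine kinase Lyn phosphorylates these motifs, which then recruit the tyrosine phosphatase SHP-1, encoded by Ptpn6, or the lipid phosphatase SHIP-1, encoded by Inpp5d. CD22 and Siglec-G bind sialic acids, CD72 binds the semaphorin CD100, LAIR-1 binds collagens, PIR-B binds MHC class I, and the receptor encoded by Fcgr2b binds the Fc part of IgG in immune complexes. Not every one of the 10 genes encodes an inhibitory receptor: Fcer2a encodes CD23, the low-affinity IgE receptor, Fcrla a protein kept inside the cell, and Fcrl1 a surface protein described as activating.

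The following matches to the ITIM are printed as examples of the motif that the named coreceptors share and that recruits SHP-1 or SHIP-1. They are a choice from the matches found, and the others in these genes are counted below but not printed. Coding sequences of 1 GENCODE M21 transcript per gene (build GRCm38) were translated and searched for isoleucine, valine, leucine or serine, then any residue, tyrosine, any 2 residues, and leucine or valine. The coding bases of each match are in capitals, read 5′ to 3′, with flanking codons in lower case, and the name gives the codon of the tyrosine.
Cd22 codon 783: gacaccGTTAGTTATGCCATCTTGcgcttt
Cd22 codon 843: gagagcATCCATTACTCAGAGCTGgttcag
Cd22 codon 863: gaagacGTAGACTATGTGACCCTCaagcac
Siglecg codon 659: gaagaaCTCCACTATGCTGCTCTCaacttc
Cd72 codon 7: gacgctATCACGTATGCAGACCTGcgcttt
Lair1 codon 228: caagagGTGACGTATATCCAGCTGgaccat
Pirb codon 794: caggatGTGACCTATGCCCAGCTGtgcagc
Pirb codon 824: gagcccAGTGTATATGCTACTCTGgcggct
Fcgr2b codon 319: aatacgATCACCTACTCACTTCTCaagcat

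Matches numbered 4 in each of Cd22, Siglecg, Cd72 and Pirb and 1 in each of Lair1, Fcgr2b and Fcrla, while Fcer2a, Fcrl1 and Ptpn6 held 0. In Cd22, Siglecg and Pirb 3 of the 4 matches, and in Lair1 and Fcgr2b the single match, fell within the last 150 codons, at the cytoplasmic end of these proteins. In Cd72, whose protein is anchored with its start inside the cell, all 4 fell within the first 150, at codons 7, 39, 95 and 118. The window of 150 codons is not the cytoplasmic part, so these 4 are not all placed inside the cell. The motif is common, with at least 1 match in 41.3% of 21500 translated genes, so a match is a description of letters and not a working site. The single match of Fcrla, at codon 88 of 353, lies outside the last 150 codons.

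The targeted gene was lower in every PP2Aa-deficient library. Ppp2r1a measured 31.3, 56.2 and 28.2 FPKM in PP2Aa-deficient replicates 1 to 3, against 85.7, 85.4 and 83.7 FPKM in WT replicates 1 to 3 (adjusted limma p of 0.168). FPKM is the number of fragments scaled to transcript length and library depth. PP2Aa-deficient replicate 2 therefore kept the most Ppp2r1a transcript of its group. B cell genes were abundant in every library, with Cd79a between 1573 and 1906 FPKM in PP2Aa-deficient and between 1519 and 1681 in WT libraries. Of B-1 cell markers, Cd5 and Itgam did not exceed 0.246 and 0.780 FPKM in any library. Others were present in every library, with Bhlhe40 at 57.4 to 82.9 FPKM in PP2Aa-deficient and 87.6 to 95.4 FPKM in WT libraries, and Plac8 at 553 to 611 FPKM in PP2Aa-deficient and 487 to 652 FPKM in WT libraries. Depth, estimated in units of 1e+06 fragments from the steps of low values, was about 2.08 to 2.53 in PP2Aa-deficient and 2.13 to 3.75 in WT libraries. WT replicate 2 was the deepest. Xist, the RNA of the inactive X chromosome, measured 84.5 FPKM in PP2Aa-deficient replicate 1 and 65.2 FPKM in WT replicate 1. It did not exceed 0.116 FPKM in the other libraries. Each group thus mixed a library with high Xist and libraries nearly without it. With a term for Xist the log2 changes were 1.15 for Lair1, -0.62 for Fcrla and -0.44 for Cd72.

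Levels of the 10 genes spanned a wide range, and 7 of the 10 had overlapping groups. None of the 10 was called over all genes by limma at an adjusted p of 0.05, where 3 of 9425 tested genes (0.0318%) were called. At an unadjusted p under 0.05 there were 3 of the 10, Lair1, Fcrla and Cd72, against 9.47% of all tested genes. The same 3 genes were those whose libraries did not overlap between the groups, against 15.1% of all tested genes. Of these, Fcrla and Cd72 were lower in PP2Aa-deficient B cells, where 7.40% of all tested genes had lower values without overlap, and Lair1 was higher. Lair1 passed the filter of 1 FPKM in 3 libraries only through the PP2Aa-deficient group, where it was high. Its place in these counts is therefore no support for a difference. Because the 10 genes were chosen with earlier results of these data known, the shares are a description without a test. The lowest adjusted p that limma gave any of the 10 under 17 other settings was 0.136. In bulk RNA, fewer cells of a type and less RNA per cell cannot be told apart.

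**Figure D1:**
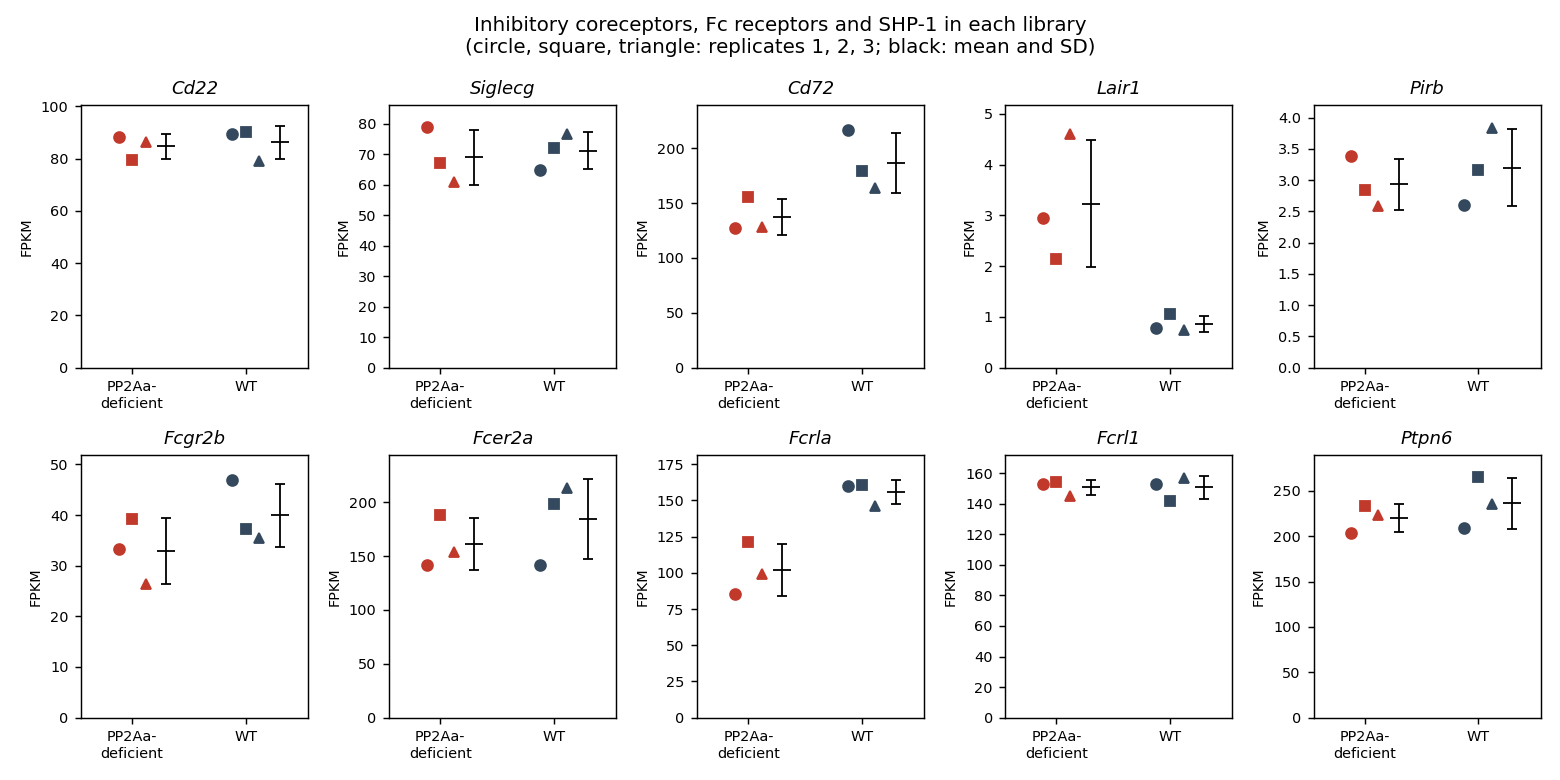
Level of each of the 10 genes in FPKM (vertical axes from 0, each with its own scale) in the 3 PP2Aa-deficient libraries (left, red) and the 3 WT libraries (right, dark), with replicates 1, 2 and 3 as circle, square and triangle and the mean and SD in black. The groups do not overlap for Cd72, Lair1 and Fcrla, and Fcrl1 lies between 142 and 157 FPKM in all 6 libraries.

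The sialic acid receptors had overlapping groups. Cd22 measured 88.1, 79.4 and 86.5 FPKM in PP2Aa-deficient libraries, against 89.3, 90.3 and 79.0 FPKM in WT. Its WT libraries held both the lowest and the highest value, and the log2 change was -0.02 (SE 0.12, 95% interval -0.29 to 0.24). Siglecg measured 78.8, 67.1 and 60.9 FPKM in PP2Aa-deficient libraries, against 64.7, 72.0 and 76.7 FPKM in WT. The highest Siglecg value of all came from PP2Aa-deficient replicate 1, and the lowest from PP2Aa-deficient replicate 3. The log2 change of Siglecg was -0.05 (SE 0.14, 95% interval -0.36 to 0.26).

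Cd72 had lower values in every PP2Aa-deficient library than in any WT library. It measured 127, 156 and 128 FPKM in PP2Aa-deficient libraries, against 217, 179 and 164 FPKM in WT. PP2Aa-deficient replicate 2 and WT replicate 3 lay closest to each other, at 156 and 164 FPKM. The PP2Aa-deficient mean was 137 ± 16.3 FPKM and the WT mean 187 ± 27.2 FPKM (SD, n = 3 each), or 73.4% of WT. On the log2 scale this was -0.44 (SE 0.14; adjusted limma p of 0.397, unadjusted 0.0142). Without PP2Aa-deficient replicate 1 or 3 the unadjusted limma p was 0.0515 and 0.05. Tesk1, a kinase gene that overlaps Cd72 on the opposite strand, measured 2.57, 4.15 and 2.55 FPKM in PP2Aa-deficient libraries, against 5.20, 3.68 and 5.47 in WT. No source used here says whether fragments were assigned by strand, so those in the shared stretch cannot be told apart, although Tesk1 was far below Cd72 per length.

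Lair1, the collagen receptor gene, had the greatest relative difference of the 10 genes, at low counts. It measured 2.95, 2.15 and 4.60 FPKM in PP2Aa-deficient libraries, against 0.787, 1.05 and 0.747 FPKM in WT. Every PP2Aa-deficient library was above every WT library, and PP2Aa-deficient replicate 3 was the highest of all. Means were 3.23 ± 1.25 FPKM in PP2Aa-deficient and 0.860 ± 0.162 FPKM in WT libraries (SD, n = 3 each). The log2 change on log2(FPKM + 1) was 1.15 (SE 0.26, 95% interval 0.57 to 1.73; adjusted limma p of 0.231, unadjusted 0.0017). That scale understates the change of a low gene. With a pseudocount of 0.1 in place of 1 the log2 change was 1.74. With a transcript length of 2496 bases from GENCODE M21, the values correspond to about 18.6, 11.2 and 28.1 fragments in PP2Aa-deficient libraries, against 4.19, 9.79 and 4.89 in WT. Lair1 passed the filter of 1 FPKM in 3 libraries through the PP2Aa-deficient group, with WT replicate 2 as the only WT library at or above 1 FPKM.

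Pirb, which lies beside Lair1 on chromosome 7, did not share its pattern. It measured 3.38, 2.85 and 2.58 FPKM in PP2Aa-deficient libraries, against 2.61, 3.17 and 3.83 FPKM in WT. The groups overlapped throughout, with a log2 change of -0.09 (SE 0.20). Its relatives of the activating Pira family can share reads with Pirb, so its level is uncertain. The 6 Pira genes listed in the table did not exceed 0.920 FPKM in any library. Leng8 and Leng9, the other close neighbours of Lair1, had log2 changes of 0.11 (SE 0.13) and 0.13 (SE 0.31).

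Among tested genes, 3 lay closest to the Lair1 profile by root-mean-square difference of centred log2(FPKM + 1) values over the 6 libraries, among 5446 candidates with a mean of at least 5 FPKM. They were Tmem242 (difference 0.16), S1pr3 (0.17) and Osgepl1 (0.21). The size of a change enters this difference and that scale understates the change of Lair1, so another scale could place other genes closest. S1pr3, a sphingosine-1-phosphate receptor used as a marginal zone marker, measured 14.7, 8.94 and 22.1 FPKM in PP2Aa-deficient libraries, against 5.63, 6.47 and 7.10 in WT. In all 3 genes PP2Aa-deficient replicates 3, 1 and 2 stood in the same descending order as for Lair1. The genes were picked for likeness to Lair1, so this order follows from the choice and is no support for a link. PP2Aa-deficient replicate 3 also held more erythroid RNA, with 72.5 FPKM summed over 9 listed erythroid genes against 9.54 to 15.3 in the other libraries. The part of marginal zone or erythroid cells in the Lair1 values was not tested.

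Fcgr2b, the inhibitory receptor gene for IgG, measured 33.3, 39.3 and 26.3 FPKM in PP2Aa-deficient libraries, against 47.0, 37.3 and 35.5 FPKM in WT. The lowest value was in PP2Aa-deficient replicate 3 and the highest in WT replicate 1, but PP2Aa-deficient replicate 2 lay above 2 of the WT libraries. The log2 change was -0.28 (SE 0.18, 95% interval -0.69 to 0.13), with an adjusted limma p of 0.686, and ran from -0.41 to -0.13 when 1 library was left out. Fcgr2b is also expressed by myeloid cells, so macrophage markers are given beside it. The summed level of 19 listed genes ran from 113 to 172 FPKM in PP2Aa-deficient libraries and from 197 to 373 FPKM in WT, and most of it was Apoe, at 98.8 FPKM on average in PP2Aa-deficient and 232 FPKM in WT libraries. Of the 19, 9 were below 1 FPKM everywhere, and of the 9 tested 3 were higher and 6 lower in PP2Aa-deficient libraries. Fcgr1 and Cd163, defining markers of macrophages, did not exceed 0.161 and 0.249 FPKM in any library. Emr1, which encodes F4/80, measured 0.242, 1.91 and 0.250 FPKM in PP2Aa-deficient libraries, against 8.59, 2.93 and 3.84 in WT. Lyz2 averaged 11.3 FPKM in both groups, and Cd68 averaged 11.3 FPKM in PP2Aa-deficient and 10.7 FPKM in WT libraries. The part of these cells in the Fcgr2b values was not tested.

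Fcrla, the gene next to Fcgr2b on chromosome 1, had lower values in all PP2Aa-deficient libraries. It measured 85.6, 121 and 98.9 FPKM in PP2Aa-deficient libraries, against 160, 161 and 146 FPKM in WT. The gap between the groups, from 121 to 146 FPKM, was wider than the whole range of the WT libraries. It was narrower than the range of the PP2Aa-deficient libraries, from 85.6 to 121 FPKM. Means were 102 ± 17.7 FPKM in PP2Aa-deficient and 156 ± 8.22 FPKM in WT libraries (SD, n = 3 each), or 65.3% of WT. The log2 change was -0.62 (SE 0.14, 95% interval -0.95 to -0.30; adjusted limma p of 0.244, unadjusted 0.00211). The unadjusted limma p stayed under 0.05 in all 17 other settings, with log2 changes from -0.75 to -0.51. Atf6 and Dusp12, other neighbours at this locus, had log2 changes of -0.04 (SE 0.14) and 0.17 (SE 0.27). Fcgr2b was at -0.28 (SE 0.18), and Fcgr3, at no more than 2.08 FPKM in any library, at -0.61 (SE 0.41).

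Fcrl1, the surface relative of Fcrla, was the steadiest of the 10 genes. It measured 153, 154 and 145 FPKM in PP2Aa-deficient libraries, against 153, 142 and 157 FPKM in WT. The log2 change was -0.004 (SE 0.11, 95% interval -0.24 to 0.24), and the coefficient of variation was 3.12% among PP2Aa-deficient and 5.09% among WT libraries. Fcrl5, another family member beside Fcrl1 on chromosome 3, measured 28.4, 14.2 and 21.9 FPKM in PP2Aa-deficient libraries, against 14.8, 19.3 and 13.0 in WT, with a log2 change of 0.39 (SE 0.25). The groups of Fcrl5 overlapped, and Fcrl6, Fcrlb and Fcrls were below 1 FPKM in every library.

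**Figure D2:**
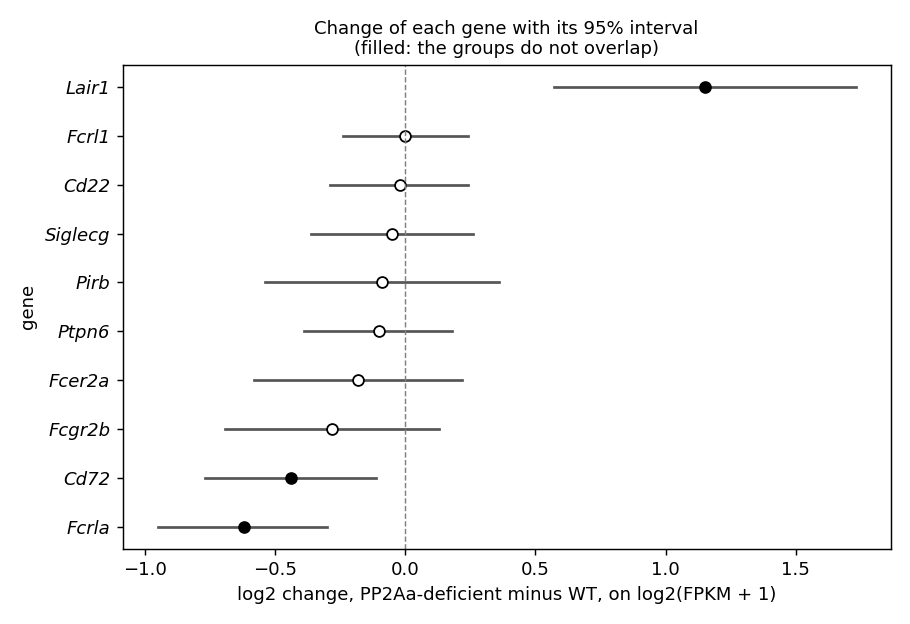
Log2 change on log2(FPKM + 1) of each of the 10 genes, PP2Aa-deficient minus WT (horizontal axis), with its 95% interval from limma. Filled points mark genes whose libraries did not overlap between the groups, which were Lair1 at 1.15, Cd72 at -0.44 and Fcrla at -0.62, and the other 7 intervals include 0.

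Fcer2a, which encodes CD23 and is high on follicular B cells, varied mostly within the groups. It measured 142, 188 and 154 FPKM in PP2Aa-deficient libraries, against 142, 198 and 213 FPKM in WT. WT replicate 1 was as low as the lowest PP2Aa-deficient library, and the log2 change was -0.18 (SE 0.18, 95% interval -0.58 to 0.22). It ran from -0.36 without WT replicate 1 to -0.068 without WT replicate 3. In that order the unadjusted limma p was 0.0335 and 0.73, and the adjusted limma p 0.396 and 0.943. Adam10, the protease that sheds CD23, measured 15.6 ± 2.07 FPKM in PP2Aa-deficient and 15.7 ± 1.94 FPKM in WT libraries (SD, n = 3 each).

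Ptpn6, the phosphatase gene that serves most of these receptors, had the highest mean of the 10 in both groups. In WT replicate 1 Ptpn6 was below Cd72. It measured 203, 233 and 223 FPKM in PP2Aa-deficient libraries, against 209, 265 and 235 FPKM in WT. The groups overlapped, with a log2 change of -0.10 (SE 0.12, 95% interval -0.39 to 0.18). Lyn, the kinase that phosphorylates ITIMs, measured 83.2 ± 6.75 FPKM in PP2Aa-deficient and 86.1 ± 12.6 FPKM in WT libraries (SD, n = 3 each). Inpp5d, encoding SHIP-1, measured 46.5, 53.4 and 43.4 FPKM in PP2Aa-deficient libraries, against 56.4, 52.3 and 60.3 in WT, with 1 PP2Aa-deficient library inside the WT range and a log2 change of -0.24 (SE 0.13).

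The order of the levels was similar in the groups. In PP2Aa-deficient B cells the means ran from Ptpn6 (220 FPKM) through Fcer2a (161), Fcrl1 (151), Cd72 (137), Fcrla (102), Cd22 (84.7), Siglecg (68.9), Fcgr2b (33.0) and Lair1 (3.23) to Pirb (2.94). In WT B cells they ran from Ptpn6 (236 FPKM) through Cd72 (187), Fcer2a (184), Fcrla (156), Fcrl1 (151), Cd22 (86.2), Siglecg (71.1), Fcgr2b (39.9) and Pirb (3.20) to Lair1 (0.860). In WT the libraries of the top 5 genes overlapped from each to the next within the 5, so their order is not set beyond the spread, whereas Cd22, Siglecg, Fcgr2b, Pirb and Lair1 were each separate from their neighbours. In PP2Aa-deficient libraries Fcer2a, Fcrl1 and Cd72 overlapped in turn, as did Fcrla with Cd22 and Lair1 with Pirb. Fcrla thus lay among the top group in WT and beside Cd22 in PP2Aa-deficient libraries.

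PP2Aa-deficient replicate 2, which kept the most Ppp2r1a transcript, was the PP2Aa-deficient library nearest to the WT mean for 7 of the 10 genes on log2(FPKM + 1). These were Cd72, Siglecg, Lair1, Fcgr2b, Fcer2a, Fcrla and Ptpn6. Replicate 1 was nearest for Pirb and Fcrl1, and replicate 3 for Cd22. Over all 9425 tested genes replicate 2 was nearest for 34.0%, and the members share their libraries, so the count is a description. The part of the remaining Ppp2r1a transcript in these values was not tested.

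Ratios within a library do not depend on how the libraries are scaled, and 3 were computed, chosen after the values were seen. Such a choice can by itself give groups that do not overlap. The separation and the exact p given here therefore describe the chosen pairs and are no support for a difference. The ratio of Fcrla to Fcrl1 was 0.561, 0.785 and 0.681 in PP2Aa-deficient libraries, against 1.04, 1.13 and 0.930 in WT. Cd72 stood to Cd22 at 1.44, 1.96 and 1.48 in PP2Aa-deficient libraries, against 2.43, 1.98 and 2.08 in WT, where the nearest values differ by little. Fcer2a stood to Cr2, the complement receptor gene CD21 used with CD23 to separate follicular from marginal zone B cells, at 2.06, 3.78 and 2.19 in PP2Aa-deficient libraries, against 4.21, 4.72 and 4.14 in WT. In each of the 3 the groups did not overlap, and the two-sided exact permutation test gave p = 0.1 (adjusted p = 0.1 over the 3), the smallest that 3 libraries against 3 allow. Most of the last difference lay in Cr2, at 68.7, 49.6 and 70.0 FPKM in PP2Aa-deficient libraries, against 33.8, 41.9 and 51.4 in WT.

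**Figure D3:**
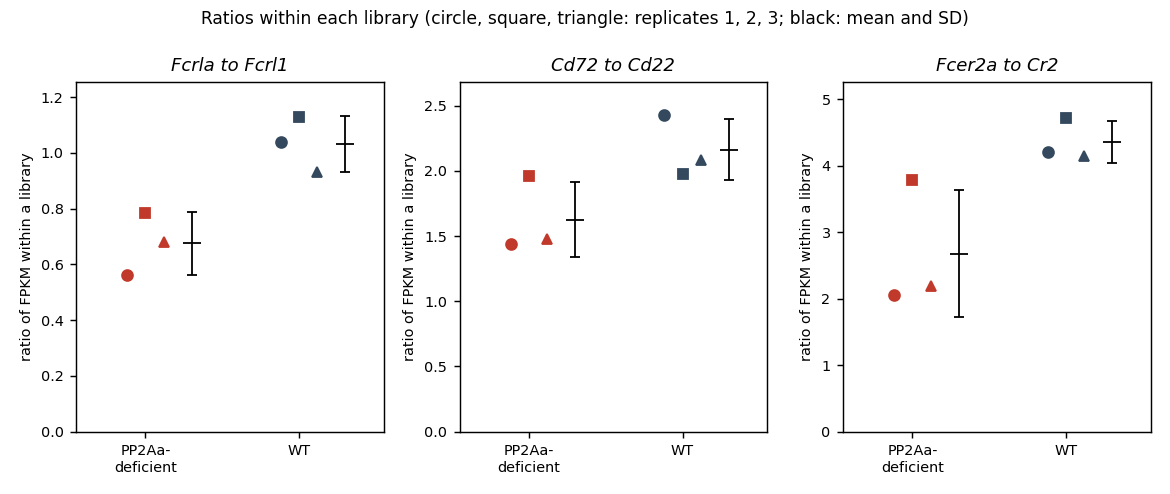
Ratio of FPKM values within each library (vertical axes from 0) for Fcrla to Fcrl1, Cd72 to Cd22 and Fcer2a to Cr2, with PP2Aa-deficient libraries on the left in red and WT on the right, replicates 1 to 3 as circle, square and triangle, and the mean and SD in black. All PP2Aa-deficient points lie below all WT points, and the square of PP2Aa-deficient replicate 2 is nearest to WT in each panel.

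Other inhibitory receptors lay on either side of WT. Of 30 listed, 28 were in the table and 16 were tested, with 5 higher and 11 lower in PP2Aa-deficient B cells, 0 called by limma in either direction and 4 at an unadjusted p under 0.05. The median log2 change was -0.12, against -0.01 over all tested genes, of which 9.47% had an unadjusted limma p under 0.05. Ly9, a SLAM family receptor, measured 35.7, 32.3 and 34.0 FPKM in PP2Aa-deficient libraries, against 24.8, 25.3 and 24.8 in WT (adjusted limma p of 0.312, unadjusted 0.00608). Ctla4, an inhibitory receptor that B-1 cells also express, measured 0.922, 2.87 and 2.73 FPKM in PP2Aa-deficient libraries, against 5.30, 4.92 and 4.02 in WT (adjusted limma p of 0.379, unadjusted 0.0116). Ly9 was above and Ctla4 below WT in every library.

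The signalling genes downstream of the receptors also lay on either side of WT. Of 33 listed, 30 were tested, with 13 higher and 17 lower in PP2Aa-deficient B cells and a median log2 change of -0.03. Limma called 0, and 1 had an unadjusted limma p under 0.05, against 9.47% of all tested genes. That 1 gene was Csk, the kinase that holds Src family kinases in check, at 60.2, 69.7 and 63.1 FPKM in PP2Aa-deficient libraries, against 82.3, 96.3 and 72.4 in WT (adjusted limma p of 0.463, unadjusted 0.028). Ptpn11, which encodes SHP-2, the relative of SHP-1, measured 3.69 ± 0.589 FPKM in PP2Aa-deficient and 3.72 ± 0.216 FPKM in WT libraries (SD, n = 3 each). Syk, the kinase that starts receptor signalling and the substrate of SHP-1 in B cells, measured 59.8 ± 6.58 FPKM in PP2Aa-deficient and 74.9 ± 7.74 FPKM in WT libraries (SD, n = 3 each), without overlap (adjusted limma p of 0.51).

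Ligands and the enzymes that make them were mixed. Of 22 listed, 21 were tested, with 7 higher and 14 lower in PP2Aa-deficient B cells and a median log2 change of -0.03. Limma called 0, and 3 had an unadjusted limma p under 0.05, against 9.47% of all tested genes. St6gal1, which adds the sialic acid that CD22 binds, measured 22.7, 34.9 and 30.4 FPKM in PP2Aa-deficient libraries, against 30.7, 29.1 and 28.2 in WT. Sema4d, encoding the CD72 ligand CD100, measured 35.1 ± 2.93 FPKM in PP2Aa-deficient and 36.1 ± 6.62 FPKM in WT libraries (SD, n = 3 each). Slc35a1, the transporter that carries activated sialic acid into the Golgi, measured 4.55, 3.51 and 5.76 FPKM in PP2Aa-deficient libraries, against 2.93, 1.94 and 2.19 in WT (adjusted limma p of 0.366, unadjusted 0.00914). St3gal6, a sialyltransferase gene, measured 23.3, 24.5 and 22.2 FPKM in PP2Aa-deficient libraries, against 19.1, 12.9 and 16.7 in WT (adjusted limma p of 0.388, unadjusted 0.0131). Slc35a1 and St3gal6 were above WT in every PP2Aa-deficient library. The remaining gene of the 3 was Cr2 (unadjusted limma p of 0.0182), which is also counted among the marginal zone genes below.

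Of the other Fc receptor genes, most of the few tested lay below WT. Of 25 listed, 22 were in the table and 7 were tested, with 1 higher and 6 lower in PP2Aa-deficient B cells. Limma called 0, and 3 had an unadjusted limma p under 0.05, against 9.47% of all tested genes. The median log2 change was -0.50, that of Trim21, which did not exceed 1.35 FPKM in any library. Fcgr3 and Pigr were also low, at no more than 2.08 and 2.77 FPKM. Fcer1g, the signalling chain shared by activating Fc receptors, measured 7.77, 5.37 and 12.3 FPKM in PP2Aa-deficient libraries, against 63.9, 21.2 and 18.1 in WT (adjusted limma p of 0.267, unadjusted 0.00439). WT replicate 1 held the most Fcer1g and the most Apoe, at 326 FPKM, but the lowest Csf1r, at 0.707 FPKM, and the part of myeloid cells in these values was not tested. Fcgrt, the neonatal Fc receptor gene, measured 6.28, 6.70 and 3.37 FPKM in PP2Aa-deficient libraries, against 7.10, 10.3 and 9.20 in WT (adjusted limma p of 0.472, unadjusted 0.0304). Faim3, which encodes the IgM receptor of B cells, measured 377, 536 and 394 FPKM in PP2Aa-deficient libraries, against 522, 613 and 550 in WT, where PP2Aa-deficient replicate 2 was inside the WT range.

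Subset markers are given beside these genes, and none was called. Over all 9425 tested genes, 477 were higher and 416 lower at an unadjusted p under 0.05. Of 10 marginal zone genes, 9 were higher and 1 lower in PP2Aa-deficient B cells, with 0 called by limma, 5 at an unadjusted p under 0.05 and a median log2 change of 0.52. The 10 follicular genes, which include Fcer2a and Fcrl1, had 2 higher and 8 lower members, with 0 called by limma, 3 at an unadjusted p under 0.05 and a median of -0.23. Bach2, a transcription factor gene of that list, measured 7.10, 8.36 and 6.69 FPKM in PP2Aa-deficient libraries, against 12.5, 12.1 and 10.8 in WT. Of 7 tested B-1 cell genes, 1 was higher and 6 lower, with 0 called by limma, 4 at an unadjusted p under 0.05 and a median of -0.47. Of 9 tested plasma cell genes, 1 was higher and 8 lower, with 0 called by limma, 5 at an unadjusted p under 0.05 and a median of -0.62. Igj, which encodes the J chain, measured 200, 461 and 186 FPKM in PP2Aa-deficient libraries, against 1167, 816 and 792 in WT. A share of subsets that differs between the groups and a change within each cell cannot be told apart in these libraries.

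**Figure D4:**
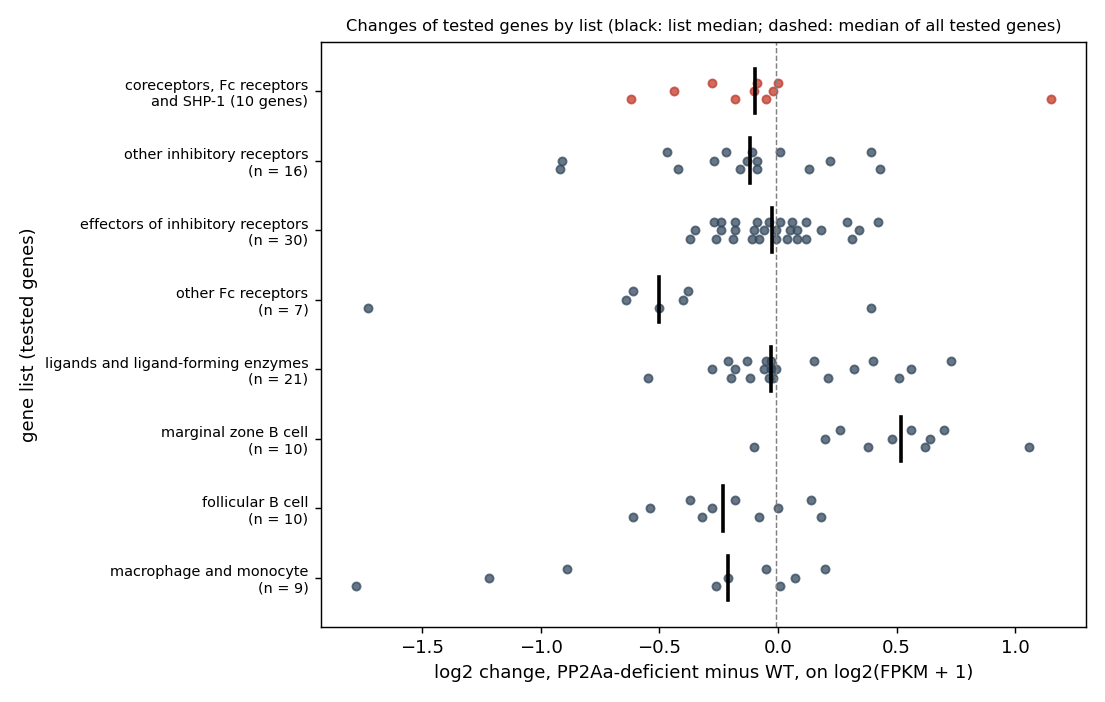
Log2 change on log2(FPKM + 1), PP2Aa-deficient minus WT (horizontal axis), of the tested genes of 8 lists (rows, with the 10 genes in red on top), with each list's median as a black bar and the median of all tested genes, -0.01, dashed. The 10 genes lie between -0.62 and 1.15 with a median of -0.09, the marginal zone list has a median of 0.52, and some genes stand in more than 1 list.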

How the data were processed

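Each of the 6 libraries has 1 column of FPKM values, deposited by the authors as 1 table. Cuffnorm, Cufflinks 2.2.1, TopHat2 2.0.10 and BWA are listed in the submitters' processing notes without their roles. Not given in the sources used here are the build, annotation, scaling and strand use. Of 22815 rows, 27 with a date in place of a symbol or no name were left out. Groups came from the source label, and no label says that libraries came from separate mice. In each group Xist was high in replicate 1 alone, so that library was not a technical repeat of the others. Whether the others came from separate mice is not given. The p-values reflect only how these libraries vary, part of which may be technical. Genes with at least 1 FPKM in 3 libraries (9425) were tested as log2(FPKM + 1) with limma 3.58.1 in R 4.3.3 (two-sided, mean-variance trend, Benjamini-Hochberg over all genes), so fold changes of low genes are understated. Tested on simulated data for the 9425 genes (200 changed, drawn from well expressed genes, noise independent between genes), limma found 91% of shifts of log2 1 and 100% of shifts of log2 2. Smaller shifts, as of Cd72 and Fcrla, and shifts of low genes, as of Lair1, were not simulated. In the data Ppp2r1a, with a log2 change of -1.18, was not called, so these shares need not hold for the 10 genes. Relative depth came from the steps of low values and fragment numbers from GENCODE M21 lengths, so they are approximate. The members, lists and settings were chosen with earlier results of these data known. Named genes were the 10 members, Ppp2r1a and, of each list, called genes or otherwise those of smallest p; other genes were named for their role or after their values were seen. The other settings were pseudocounts of 0.1 and 0.5, other filters and scalings, no trend, array weights, terms for Xist and depth, and leaving out each library. Summaries and plots used scipy 1.17.1, numpy 2.4.6, pandas 2.3.3 and matplotlib 3.10.9 under Python 3.11.15. 1 gene of the table is not reported here.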

Additional observations from a re-analysis of the deposited data

How the results depend on the processing

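None of the 10 genes was called under any of the 17 alternatives, and 8 of them were tested under the filter at 5 FPKM, which removed Lair1 and Pirb. The number of the 10 at an unadjusted limma p under 0.05 was 3 in the main fit. It ran from 2, as without PP2Aa-deficient replicate 1, to 4 without WT replicate 1, where Fcer2a was added. Lair1 stayed higher and Fcrla and Cd72 lower in PP2Aa-deficient B cells wherever tested, with log2 changes of 0.93 to 1.74, -0.75 to -0.51 and -0.53 to -0.33. Signs near 0 turned. Cd22 was at 0.002 with a term for relative depth and ran from -0.085 to 0.020 when 1 library was left out, Siglecg from -0.15 to 0.035, Pirb from -0.19 to 0.017 and Fcrl1 from -0.045 to 0.025. Fcrl1 was at 0.071 after quantile normalization and 0.015 with array weights. Over all genes, 0 higher and 3 lower genes became 1 higher with no filter, 3 higher with the filter at 5 FPKM, 7 higher after quantile normalization, 4 higher and 5 lower without the mean-variance trend, and 11 higher and 5 lower with array weights. Leaving out 1 library gave 0 to 4 genes called higher, the 4 without WT replicate 1, and 1 to 12 called lower, the 12 without PP2Aa-deficient replicate 2 and the 1 without each WT library. The causes were not tested. No paired analysis was possible because the labels carry no replicate numbers. Depth limits Lair1 and Pirb, which rest on about 4.19 to 28.1 and 21.3 to 45.4 fragments a library.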
